A study of Mus musculus with 5 samples.

Results

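The genes examined are the ligands and receptors of the tumour necrosis factor (TNF) superfamily, taken by name: every measured symbol that begins with Tnfsf or Tnfrsf and a digit, plus Lta, Ltb, Ltbr, Cd40, Cd70 and Ngfr. The selection leaves out Tnfrsf10b, the mouse death receptor for TRAIL, and Tnfrsf19, neither of which was analysed here. These rules gave 34 genes, 13 ligands and 21 receptors, of the 23779 named genes on the array. Each gene was read from its probe with the highest mean signal over all arrays, and 11 of the 34 had several probes. A level is the log2 spot signal minus the 75th percentile of that array, so a level of 0 is the signal of the 75th percentile spot and a difference of 1 is 2-fold. Levels of different genes come from different probes and are not compared with each other.

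Total RNA of mouse gastric organoids, epithelial cultures grown from stomach, was measured on 5 single-colour Agilent arrays, 1 per culture. The control was an organoid culture from Trp53flox/flox mice that carried the pLKO.1 control vector and shLuc, a hairpin against luciferase, sampled before it was inoculated under the skin. The other 4 cultures were regrown from subcutaneous tumours, and all 4 are labelled with Trp53 loss. Among them, 2 carried a hairpin against Cdh1, the E-cadherin gene, and are called hairpin 1 and hairpin 2 (shCdh1 #1 and #2 in the labels). The third carried Apc580D, a mutant allele of a negative regulator of Wnt signalling. The last carried Pik3caH1047R, an activated form of a lipid kinase. All 5 cultures shared a serum-free medium with EGF, Noggin, R-spondin1, Jagged-1, the kinase inhibitor Y27632 and the GSK3 inhibitor CHIR-99021. The labels give no age of the mice and no host strain for the tumours, and name 1 array per lesion, so each lesion is represented by 1 culture apart from the hairpins. The control differs from the tumour cultures in Trp53 status, in vector and lesion and in passage through an animal, and these cannot be told apart.

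TNF superfamily ligands are mostly trimeric proteins on the surface of cells, from which some are shed. Their receptors fall into those with a cytoplasmic death domain, those that recruit TRAF adaptors and lead to NF-kB, and decoys that bind ligand and carry no signal. In the gut and stomach wall, epithelial cells carry receptors such as Ltbr and Tnfrsf1a, while many of the ligands and the costimulatory receptors are best known from lymphocytes and myeloid cells.

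Between 61.8% and 65.3% of the 59305 non-control spots per array were well above background, and no spot was saturated. The 75th percentile exceeded the median local background 24.0 to 27.9-fold. The Cdh1 level was 0.07 and 0.26 with the hairpins against 4.39 in the control, 4.48 with Apc580D and 4.58 with Pik3caH1047R. Trp53 read 0.85 for the control, against −5.06 and −5.09 for the hairpins, −5.86 with Apc580D and −4.86 with Pik3caH1047R. All 5 arrays are labelled female, yet the Pik3ca array had 4 of 4 Y-linked genes well above background and not Xist, while the other arrays had Xist and 0 of the 4. The comparison of all tumour cultures with the control and the larger differences are therefore also given without that array, while the remaining values include it. Of 14 gastric epithelial markers, 13 or 14 were well above background on each array. Their median level was 3.13 in the control and 0.29 to 1.27 in the tumour cultures, with 12 of the 14 lower over the tumour cultures (median difference −0.68, against 0.06 over all genes tested) and 0 past the threshold in limma (1 at an unadjusted p under 0.05). The part of this shift in the superfamily values was not tested. Of 15 leukocyte markers 6 to 9 were, and the T cell gene Cd3g, the B cell gene Cd79a, the macrophage genes Adgre1 and Lyz2, Itgax and the NK cell gene Nkg7 were below that mark on all 5 arrays. Their summed signal was 4.14 in the control and 4.46 to 5.05 in the tumour cultures on the log2 scale, and the pan-leukocyte gene Ptprc passed with both hairpins and Apc580D only. Fibroblast markers passed for 3 to 5 of 8 genes, with a summed signal of 3.39 to 3.92, nearly all of it Acta2. Col3a1, Pdgfrb and Lum were below the mark everywhere, and Dcn was above it with Apc580D alone. Of 6 endothelial markers 3 or 4 passed, with a summed signal of −1.77 in the control and −2.80 to −2.17 in the tumour cultures. The largest part of the control sum was Emcn, at −2.54 in the control and −8.30 to −7.99 in the tumour cultures. Over the tumour cultures 4 of the 6 were higher than the control and 2 lower.

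Of the 34 superfamily genes, 19 were well above background on all 5 arrays, 8 on some and 7 on none. On every array 14 of 21 receptors and 5 of 13 ligands passed. The receptor genes Cd40, Tnfrsf8 (CD30) and Tnfrsf17 (BCMA) and the ligand genes Cd70, Tnfsf8 (CD30 ligand), Tnfsf11 (RANKL) and Tnfsf18 (GITR ligand) did not reach the mark on any array. The remaining 27 genes were tested, and they are only those that were detected somewhere; 19 of 27 passed on all arrays, 70.4% against 82.9% of all genes tested. Of the 19 measured on every array, 12 spanned less than 2-fold over all 5 arrays, or 63.2% against 70.7% of the 14584 genes measured on every array. At the other end 3 of the 19 (Ltb, Tnfrsf11b and Tnfrsf18) spanned at least 4-fold, 15.8% against 8.13%. Among the tumour cultures alone, 6 of the 19 (these 3 with Lta, Tnfrsf21 and Tnfrsf25) spanned at least 2-fold, 31.6% against 18.4%. In bulk RNA, fewer cells of a type and less RNA per cell cannot be told apart.

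**Figure D1:**
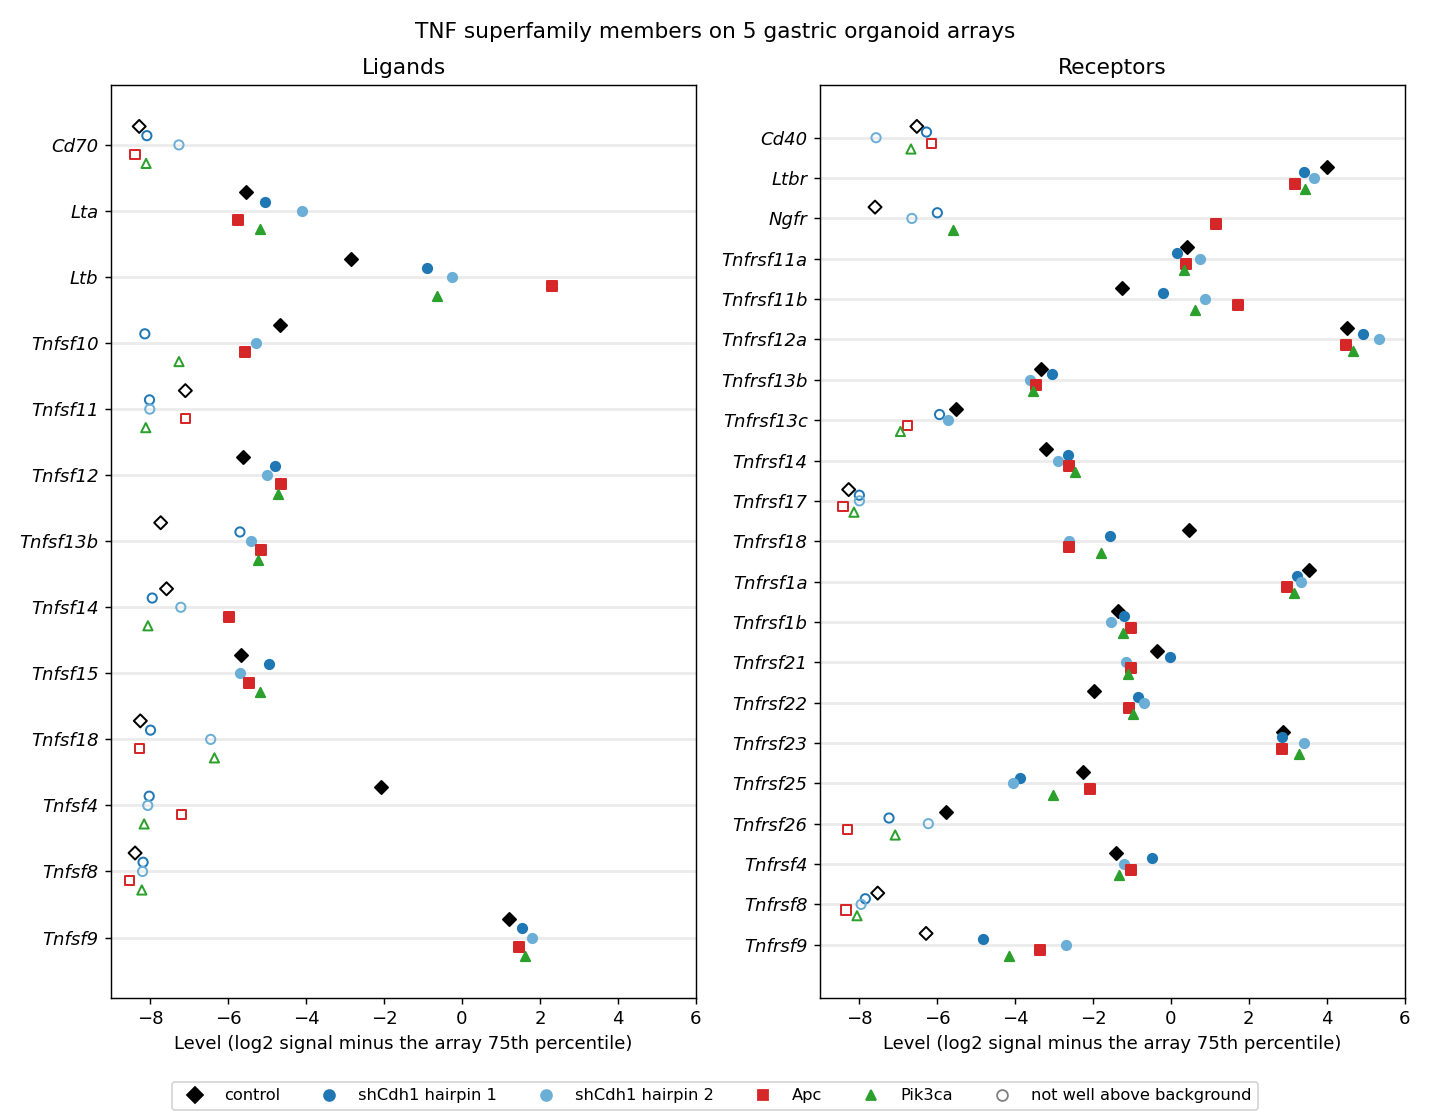
Level of each ligand (left) and receptor (right) on the 5 arrays, as log2 signal minus the 75th percentile of the array. Filled symbols are well above background and open symbols are not, and points of a gene are spread vertically only for legibility. The arrays lie far apart for Ngfr, Tnfsf4, Ltb, Tnfrsf9 and Tnfsf10, while Tnfsf9, Tnfrsf1a, Ltbr and Tnfrsf12a lie close together.

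When the 4 tumour cultures were compared with the control, 1 of the 27 genes passed the threshold in limma at a Benjamini-Hochberg adjusted p under 0.05, against 0.119% of the 17583 genes tested. That gene was Tnfsf4, which fell. Lower calls made up 0.0967% of all genes and higher calls 0.0227%. At an unadjusted p under 0.05 the count was 7 of 27, 5 higher and 2 lower, against 13.3% of all genes tested. The median difference over the 27 was 0.28, and over all genes tested 0.06. Without the Pik3ca array 0 of the 27 and 0 of all genes passed in limma, 6 of 27 had an unadjusted p under 0.05 against 10.5% of all genes, and the medians were 0.31 and 0.06. With 1 control array the p-values measure only the spread between the tumour cultures, and where nothing says how the cultures were derived that spread may be partly technical. The number of arrays limits the precision of every value.

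The ligand and receptor of the OX40 pair, which sustains T cell activation, gave unlike values. Tnfsf4, the OX40 ligand, stood at −2.08 in the control, −8.03 and −8.06 with the hairpins, −7.20 with Apc580D and −8.16 with Pik3caH1047R. It was well above background in the control alone, and the 4 tumour cultures lay together and apart from it. The measured difference was −5.79 ± 0.43 (standard error, 4 tumour cultures against 1 control, adjusted p = 0.0401 in limma). Since the tumour signals were not well above background, their closeness, the error and the adjusted p describe signals near background. The size is a bound: at least 15.0-fold lower, taking for each tumour array the lowest signal of any spot well above background there. The call was lost without hairpin 1 (−5.73, adjusted p = 0.125), without hairpin 2 (−5.72, adjusted p = 0.147), without Pik3caH1047R (−5.69, adjusted p = 0.187) and with slide as a block (−5.97, adjusted p = 0.188), and over all alternatives in limma the adjusted p ran from 0.0112 to 0.188. Normexp background correction, which compresses dim signals, gave −2.13. Raising dim signals to the floor gave −3.91 and the lowest adjusted p in limma, 0.0112, with array floors in place of the tumour values. Detection in the control and in no tumour culture was shared by Tnfrsf26, so it held for 2 of 27 members (7.41%) and for 1.01% of genes tested. Tnfrsf4, the OX40 receptor, was measured on every array at −1.41 in the control, −0.48 and −1.20 with the hairpins, −1.03 with Apc580D and −1.33 with Pik3caH1047R. All 4 tumour values lay above the control, by at most 0.93. RefSeq places Tnfsf4 next to Tnfsf18, which was not well above background on any array.

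Tnfrsf18 (GITR), a costimulatory receptor of T cells whose gene adjoins Tnfrsf4, was lower on every tumour array. Its level was 0.46 in the control, −1.56 and −2.61 with the hairpins, −2.61 with Apc580D and −1.79 with Pik3caH1047R. The control lay above all 4 tumour cultures by 4.05 to 8.40-fold, and the hairpins differed from each other by more than 2-fold. The difference was −2.60 ± 0.52 with an adjusted p of 0.226 in limma, so it did not pass, and it was −2.72 without Pik3caH1047R (adjusted p = 0.366, in a range of 0.118 to 0.442 over all alternatives in limma). Hairpins against control, which lie on the same slide, gave −2.54 ± 0.59 (adjusted p = 0.489 in limma). It was the only one of the 19 genes measured everywhere to lie at least 2-fold below the control on all 4 tumour arrays, which is 5.26% against 2.22% of all such genes. The 250 bases before its RefSeq start in GRCm38.p6 are shown because the gene was lower on every tumour array while its neighbour Tnfrsf4 stayed within 2-fold. Capitals in this and the other promoters mark matches, on either strand, to the NF-kB consensus, the p53 decamer consensus, the AP-1 motif TGANTCA and the TCF core CTTTGAT, and this window holds none.
Tnfrsf18 promoter, chr4:156026072-156026321 (+ strand): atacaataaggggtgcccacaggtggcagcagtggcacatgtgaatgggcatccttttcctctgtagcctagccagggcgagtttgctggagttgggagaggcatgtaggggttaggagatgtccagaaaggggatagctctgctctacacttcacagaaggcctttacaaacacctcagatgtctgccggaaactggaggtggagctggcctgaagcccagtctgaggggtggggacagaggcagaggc

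Lymphotoxin ligands pair as Lta and Ltb into a membrane trimer that signals through Ltbr to the alternative NF-kB pathway. Ltb, the membrane anchor of that trimer, stood at −2.85 in the control, −0.89 and −0.26 with the hairpins, 2.32 with Apc580D and −0.64 with Pik3caH1047R. Every tumour culture lay above the control, by 1.96 and 2.59 with the hairpins, 5.17 (36.0-fold) with Apc580D and 2.21 with Pik3caH1047R. The difference over the 4 cultures was 2.98 ± 1.31 and did not pass (adjusted p = 0.416 in limma). Much of that error comes with the Apc array, since without it the difference was 2.25 ± 0.34 (adjusted p = 0.248, the lowest of a range up to 0.604 over all alternatives in limma), and without Pik3caH1047R it was 3.24. Apc580D against control gave 5.17 ± 0.48 (adjusted p = 0.251) and Apc580D against the other tumour cultures 2.93 ± 0.40 (adjusted p = 0.406), both in limma with the spread of the hairpin pair as the error. Neither passed, and against the hairpins alone, without Pik3caH1047R, the latter was 2.90.

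Lta, whose gene lies on the other side of Tnf from Ltb, was measured on all arrays at −5.54 in the control, −5.04 and −4.10 with the hairpins, −5.74 with Apc580D and −5.18 with Pik3caH1047R. The Apc array was the lowest for Lta and the highest for Ltb. Ltbr, the shared receptor, stood at 4.0 in the control, 3.42 and 3.66 with the hairpins, 3.19 with Apc580D and 3.45 with Pik3caH1047R. All 4 tumour values lay below the control, by at most 1.75-fold. Tnfsf14 (LIGHT), another ligand of Ltbr, passed background with Apc580D alone (1 of 27 members, 3.70% against 2.33% of genes tested), at −5.98, which is at least 1.06-fold above the control. Its second receptor Tnfrsf14 (HVEM) was higher on each tumour array, at −2.91 to −2.47 against −3.20.

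The Ltb promoter is shown because Ltb had the widest range, 36.0-fold, among the genes measured on every array. Its window holds 1 NF-kB consensus match, 87 to 78 bases before the start.
Ltb promoter, chr17:35194257-35194506 (+ strand): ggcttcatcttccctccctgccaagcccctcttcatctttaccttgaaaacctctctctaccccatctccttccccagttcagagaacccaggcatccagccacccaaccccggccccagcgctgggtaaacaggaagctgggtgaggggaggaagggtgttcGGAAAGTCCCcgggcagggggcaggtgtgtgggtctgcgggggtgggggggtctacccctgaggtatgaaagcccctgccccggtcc

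The sequence table held 29 promoters of 26 superfamily genes, none of them for Tnfsf4 or Tnfrsf11b. The NF-kB consensus occurred in 4 of the 29 (those of Ltb, Tnfrsf8, Tnfrsf9 and Tnfrsf25) and in 7.25% of 32851 mouse promoter windows of that length. AP-1 occurred in 4 (Tnfrsf8, Tnfrsf9, Tnfsf13b and Tnfsf14) against 6.75%. The p53 decamer occurred in 1 (Tnfsf13b) against 7.13%, and the TCF core in 1 (Tnfrsf9) against 3.21%. A match is a run of letters and not a measured site, and these windows cover only the bases next to the annotated start.

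For the 4-1BB pair, the ligand gene spanned less than 2-fold and the receptor gene more than 4-fold. Tnfsf9, the 4-1BB ligand, was 1.22 in the control, 1.55 and 1.79 with the hairpins, 1.47 with Apc580D and 1.61 with Pik3caH1047R. Its tumour values all lay above the control, by at most 1.49-fold. Tnfrsf9, the costimulatory receptor 4-1BB, was −6.28 in the control, −4.83 and −2.70 with the hairpins, −3.37 with Apc580D and −4.14 with Pik3caH1047R. The control was the one array not well above background, and the hairpins differed by 2.14. Measured against the control the difference was 2.52 ± 0.83 (adjusted p = 0.332 in limma, not passed), or at least 4.94-fold higher with the control at its floor, and 2.65 without Pik3caH1047R. Normexp gave 0.92 and hairpin 2 was the array whose removal lowered it most, to 2.17. A second Tnfrsf9 probe read −8.35 in the control, −6.09 and −4.03 with the hairpins, −4.77 with Apc580D and −5.35 with Pik3caH1047R, in the same order of arrays, and it was below background with hairpin 1 too. Only Tnfrsf9 was detected on all 4 tumour arrays and not in the control, 3.70% of members tested against 1.33% of all genes tested.

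RefSeq gives Tnfrsf9 a pair of starts, and both windows are shown because they differ in their matches: the first has a TCF core on the reverse strand, and the second has a pair of overlapping NF-kB matches 43 to 33 bases before the start and an AP-1 motif 15 to 9 bases before it. The array probes do not tell which start was used.
Tnfrsf9 promoter at the first start, chr4:150919905-150920154 (+ strand): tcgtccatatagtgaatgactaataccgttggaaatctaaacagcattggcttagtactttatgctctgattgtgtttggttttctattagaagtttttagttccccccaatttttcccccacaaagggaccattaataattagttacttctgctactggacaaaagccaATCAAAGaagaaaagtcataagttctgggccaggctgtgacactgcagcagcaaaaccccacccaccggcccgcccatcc
Tnfrsf9 promoter at the second start, chr4:150927749-150927998 (+ strand): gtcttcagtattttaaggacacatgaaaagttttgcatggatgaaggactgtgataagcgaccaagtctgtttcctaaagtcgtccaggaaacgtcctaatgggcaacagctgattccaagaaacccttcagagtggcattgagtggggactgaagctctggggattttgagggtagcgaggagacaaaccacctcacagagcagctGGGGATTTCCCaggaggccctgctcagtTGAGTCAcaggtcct

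**Figure D2:**
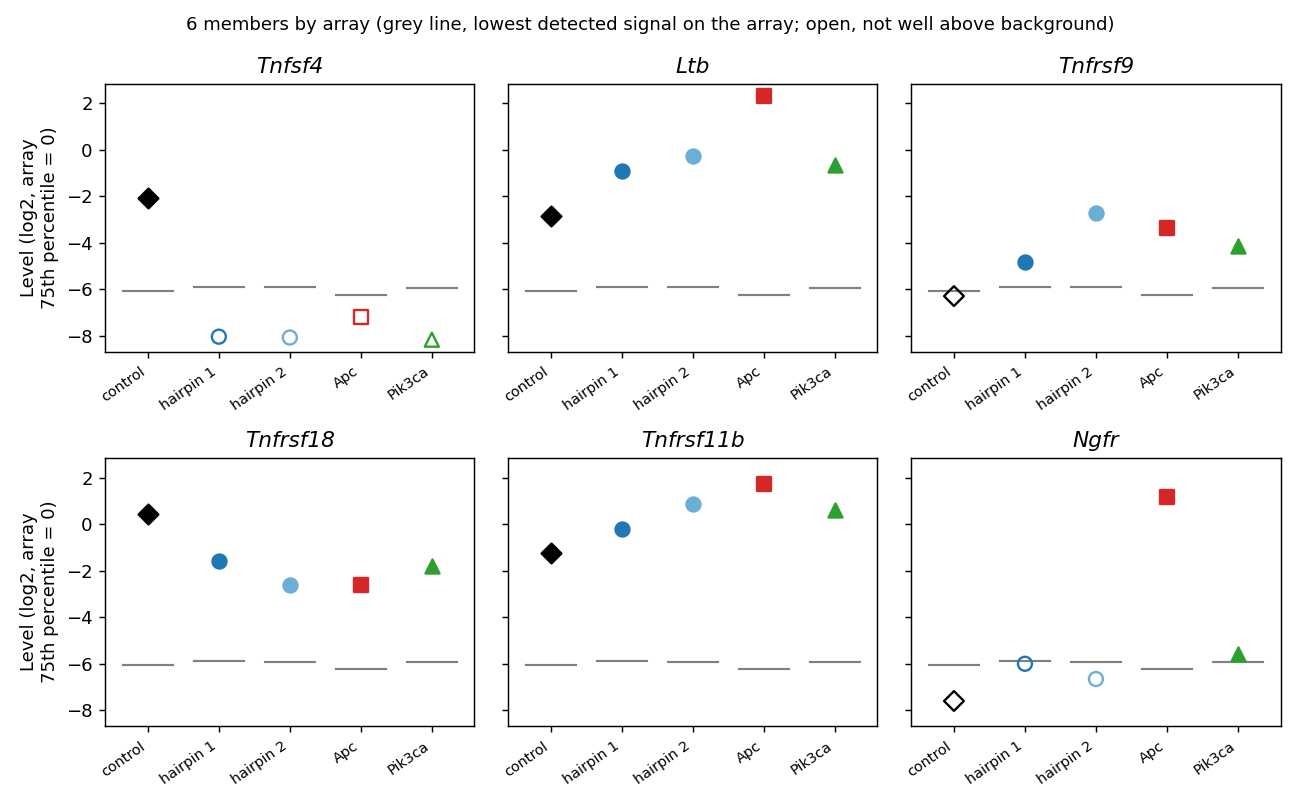
Level on each of the 5 arrays for 6 superfamily genes, as log2 signal minus the array's 75th percentile, with filled symbols well above background and open symbols not. Ltb, Tnfrsf11b and Tnfrsf9 lie above the control on every tumour array, Tnfrsf18 and Tnfsf4 below it, and Ngfr stands at 1.16 with Apc580D against −7.59 to −5.59 elsewhere.

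Tnfrsf11b encodes osteoprotegerin, a secreted decoy for RANKL and TRAIL. It stood at −1.26 in the control, −0.22 and 0.86 with the hairpins, 1.72 with Apc580D and 0.62 with Pik3caH1047R. All 4 tumour cultures lay at least 2-fold above the control, from 2.06-fold with hairpin 1 to 7.85-fold with Apc580D. The difference was 2.00 ± 0.72 (adjusted p = 0.353 in limma, not passed) and 2.04 without Pik3caH1047R. Ltb and Tnfrsf11b were the 2 genes of the 19 that lay at least 2-fold above the control on every tumour array, 10.5% against 1.74% of all genes measured on every array. Fibroblasts are a textbook source of osteoprotegerin. Of the 8 fibroblast markers Col1a1, Col1a2 and Acta2 were well above background on all arrays, and Col3a1, Pdgfrb and Lum on none. Pdgfra passed with hairpin 2 and Apc580D only, and Dcn with Apc580D only. The summed signal of these markers was 3.52 in the control and 3.39 to 3.92 in the tumour cultures. Nearly all of it was Acta2, at 3.51 in the control and 3.36 to 3.91 in the tumour cultures. The median level of the 8 was −7.27 in the control and −6.60 to −5.05 in the tumour cultures. Of the 5 markers tested, 5 were higher over the tumour cultures, 0 were lower and 0 passed in limma. The part of fibroblasts in the Tnfrsf11b values was not tested. Tnfrsf11a (RANK), the receptor that osteoprotegerin competes with, ranged only from 0.15 with hairpin 1 to 0.74 with hairpin 2, and the control at 0.41 lay between them. Its ligand gene Tnfsf11 did not reach background on any array.

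Tnfsf10 (TRAIL), a ligand that can trigger apoptosis, was well above background in the control at −4.67, with hairpin 2 at −5.28 and with Apc580D at −5.56. It was not so with hairpin 1 (−8.14) or Pik3caH1047R (−7.26), and for the latter the signal was at least 2.39-fold below the control (adjusted p = 0.607 in limma). The hairpins lay on either side of the detection mark. The mouse TRAIL decoy receptors Tnfrsf22 and Tnfrsf23 and their neighbour Tnfrsf26 form a cluster in the genome. Tnfrsf22 was −1.99 in the control, −0.83 and −0.69 with the hairpins, −1.09 with Apc580D and −0.97 with Pik3caH1047R. The tumour values lay close together and above the control, by 1.87 to 2.46-fold. A second Tnfrsf22 probe, for another transcript, was lower in the control than elsewhere by less, at −1.35 against −1.33 to −0.78. Tnfrsf23 lay between 2.85 and 3.41 on all arrays with the control at 2.89. On a further Tnfrsf23 probe the control read −2.75 and the tumour cultures −2.63 to −1.98. On another, for a different transcript, these were −3.78 and −3.22 to −2.92. Both of these probes were well above background on every array. Tnfrsf26 passed background in the control alone, at −5.77, at least 1.16-fold above the tumour cultures, and its sign turned under normexp (0.07).

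Ngfr, the p75 neurotrophin receptor and a marker of neural and some progenitor cells, was high on 1 array. Its level was −7.59 in the control, −6.00 and −6.65 with the hairpins, 1.16 with Apc580D and −5.59 with Pik3caH1047R. Apc580D and Pik3caH1047R were well above background and the other arrays were not, and the Apc array lay far from all others. Apc580D against control gave 8.76 ± 0.49 (adjusted p = 0.21 in limma, not passed), or at least 150-fold higher with the control at its floor. Against the other tumour cultures, a value singled out after it was seen, the difference was 7.12 ± 0.41 (adjusted p = 0.225 in limma). It was 7.48 without Pik3caH1047R, and under normexp it was smaller and passed (4.90, adjusted p = 0.0499, in a range of 0.0499 to 0.547 over its alternatives in limma). Nothing separates the Apc580D lesion from the 1 culture that carried it. On the same array Dcn, a fibroblast gene, was at −3.25 and not well above background elsewhere. Of the 8 fibroblast markers 5 passed on the Apc array. Their summed signal was 3.39 there against 3.52 to 3.92 elsewhere. Nearly all of that sum was Acta2, at 3.36 there and 3.51 to 3.91 elsewhere. The median level of the 8 markers was highest there, at −5.05 against −7.27 to −6.09 elsewhere. The part of other cell types in the Ngfr value was not tested. The Ngfr promoter, with no match to the 4 motifs, is shown as the start region of the gene with the widest range of all 34.
Ngfr promoter, chr11:95587699-95587948 (- strand): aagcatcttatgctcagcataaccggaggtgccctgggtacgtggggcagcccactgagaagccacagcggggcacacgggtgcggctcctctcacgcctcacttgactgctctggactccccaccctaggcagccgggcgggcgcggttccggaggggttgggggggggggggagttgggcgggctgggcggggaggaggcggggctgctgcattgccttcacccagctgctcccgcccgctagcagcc

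The receptors for TNF itself were close to level. Tnfrsf1a (TNFR1), the death domain receptor found on most cells, was 3.54 in the control, 3.25 and 3.33 with the hairpins, 2.99 with Apc580D and 3.16 with Pik3caH1047R. All tumour values were below the control, by at most 1.46-fold. Tnfrsf1b (TNFR2), which lacks a death domain, ranged from −1.55 to −1.02 with the control at −1.36 between the hairpins. Tnfrsf1a, Ltbr and Tnfrsf18 were the 3 genes of 19 below the control on every tumour array (15.8% against 26.3% of genes), and 7 lay above it on every tumour array (36.8% against 28.9%): Ltb, Tnfrsf11b, Tnfrsf14, Tnfrsf22, Tnfrsf4, Tnfsf12 and Tnfsf9.

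TWEAK and its receptor differed little. Tnfsf12 (TWEAK) was −5.61 in the control, −4.80 and −4.99 with the hairpins, −4.65 with Apc580D and −4.72 with Pik3caH1047R, with all 4 tumour values above the control by 1.54 to 1.95-fold. Tnfrsf12a (Fn14), an injury-induced receptor of epithelium, was 4.51 in the control, 4.94 and 5.34 with the hairpins, 4.50 with Apc580D and 4.66 with Pik3caH1047R. The hairpin cultures were the highest for Tnfrsf12a, by at most 1.77-fold over the control.

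Tnfrsf25 (DR3) was lowest in the hairpin cultures. This death domain receptor stood at −2.25 in the control, −3.86 and −4.06 with the hairpins, −2.08 with Apc580D and −3.03 with Pik3caH1047R. The hairpins agreed within 0.20 and lay below all 3 other arrays. Hairpins against control gave −1.71 ± 0.29 (adjusted p = 0.457) and hairpins against the other tumour cultures −1.41 ± 0.23 (adjusted p = 0.547), neither past the threshold in limma. Without Pik3caH1047R the latter was −1.88. Its ligand gene Tnfsf15 (TL1A) ranged from −5.69 to −4.94, with the control at −5.67 inside the tumour range. A second Tnfsf15 probe read −6.84 in the control, below the −6.38 to −5.39 of the tumour cultures. That probe was well above background with hairpin 1, Apc580D and Pik3caH1047R only. Tnfrsf21 (DR6), a further death domain receptor, was −0.36 in the control, −0.02 with hairpin 1 and −1.14 to −1.02 on the other 3 arrays, so the hairpins differed by −1.12. A second Tnfrsf21 probe, also well above background on all 5 arrays, read −1.96 in the control, −2.31 and −2.74 with the hairpins, −2.98 with Apc580D and −2.60 with Pik3caH1047R. There all 4 tumour values lay below the control and the hairpins differed by −0.43. By the probe chosen for each gene, Tnfrsf21, Tnfrsf11b and Tnfrsf18 were the 3 of 19 genes whose hairpins differed at least 2-fold, 15.8% against 7.52% of genes measured everywhere. On the second Tnfrsf21 probe that difference was 1.34-fold.

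The B cell axis was dim. Tnfsf13b (BAFF), the B cell survival factor, was −7.73 in the control, −5.70 and −5.42 with the hairpins, −5.15 with Apc580D and −5.24 with Pik3caH1047R. It was well above background with hairpin 2, Apc580D and Pik3caH1047R, so that Apc580D lay at least 1.89-fold and Pik3caH1047R at least 1.77-fold above the control, with adjusted p of 0.302 and 0.317 in limma. Of its receptors, Tnfrsf13b (TACI) ranged from −3.63 to −3.05 with the control at −3.34. A second Tnfrsf13b probe, also well above background on every array, ranged from −5.77 with Pik3caH1047R to −3.76 with hairpin 2. The control read −4.23 on that probe. Tnfrsf17 was not well above background, and Tnfrsf13c (BAFF receptor) passed only in the control (−5.52) and with hairpin 2 (−5.72). A second Tnfrsf13c probe, for another transcript, passed with Apc580D alone.

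**Figure D3:**
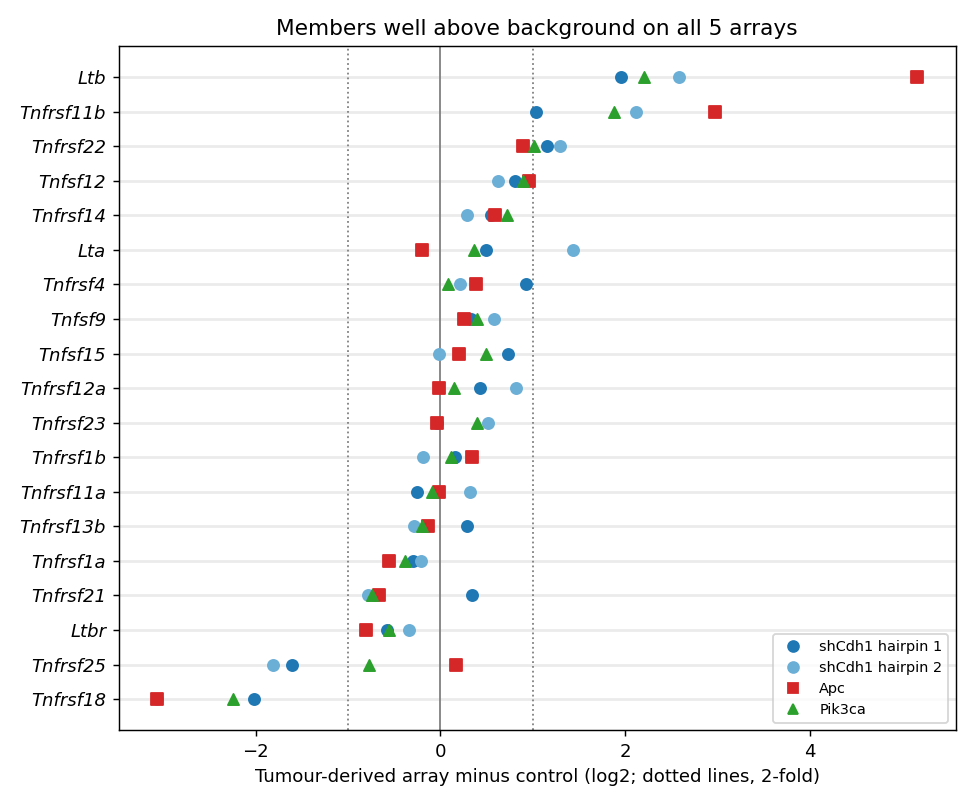
Each tumour culture minus the control (log2) for the 19 superfamily genes well above background on all 5 arrays, with dotted lines at 2-fold. Ltb and Tnfrsf11b lie beyond the upper line on all 4 tumour arrays and Tnfrsf18 beyond the lower one, and for Tnfrsf25 the hairpins alone lie beyond the lower line.

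The 6 comparisons by lesion, in which the error is the spread of the hairpin pair, called 0 of the 27 genes and 0% of all genes at an adjusted p under 0.05 in limma. At an unadjusted p under 0.05 hairpins against control gave 6 of 27 superfamily genes against 9.74% of all genes, Apc580D against control 8 against 9.02%, and Pik3caH1047R against control 6 against 11.5%. These 3 comparisons share the control array. The median difference over the 27 genes was 0.24, 0.17 and 0.12 in that order, beside 0.09, −0.01 and 0.06 over all genes tested. Within the tumour cultures the counts were 4 for the hairpins against the rest (6.03% of all genes), 5 for Apc580D (6.03%) and 2 for Pik3caH1047R (5.73%), and all 5 for Apc580D were higher. On single arrays, genes at least 2-fold above the control numbered, of the 19, 3 with hairpin 1 (4.52% of genes measured everywhere), 4 with hairpin 2 (6.76%), 2 with Apc580D (6.23%) and 3 with Pik3caH1047R (7.91%), Ltb and Tnfrsf11b among them each time. Those at least 2-fold below it numbered 2 (6.74%), 2 (6.93%), 1 (5.16%) and 1 (8.48%) in the same order, Tnfrsf18 each time and Tnfrsf25 with the hairpins. Array slide 1 held the control and both hairpins and slide 2 the Apc580D and Pik3caH1047R cultures, so slide and lesion cannot be told apart there.

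Genes of the superfamily with other symbols, 8 in number, included 6 that were tested, 4 higher and 2 lower than the control, with a median of 0.13. Of these 1 passed: Eda2r, the receptor of an ectodysplasin form and a known p53 target, fell from −0.36 in the control to between −8.40 and −7.81 (−7.73 ± 0.29, adjusted p = 0.00574 in limma), at least 49.4-fold. It was singled out after its value was seen, and without Pik3caH1047R it was −7.73 and did not pass (adjusted p = 0.0602 in limma). Tnf, the gene between Lta and Ltb, was −3.42 in the control, −0.52 and 0.37 with the hairpins, −0.60 with Apc580D and −0.75 with Pik3caH1047R, a difference of 3.04 ± 0.48 that did not pass (adjusted p = 0.18 in limma), 3.17 without Pik3caH1047R. Fas, a death receptor, gave −2.04 ± 0.70 (adjusted p = 0.343 in limma), or −1.82 without Pik3caH1047R, and Relt gave 0.26. Eda, measured on every array at −1.76 to −1.01, had the control at −1.47 inside the tumour range. Fasl and Edar were not well above background on any array.

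Of 25 adaptors and proximal signalling genes downstream of the receptors, 24 were tested and all 24 were measured on every array. Of these 15 were higher and 9 lower than the control, and 0 passed in limma. An unadjusted p under 0.05 was found for 4 of the 24, against 13.3% of all genes tested. Their median difference was 0.35 beside 0.06 over all genes tested. Traf1, an NF-kB induced adaptor of the costimulatory receptors, stood at −4.76 in the control and −3.37 to −2.35 in the tumour cultures (2.02 ± 0.45, adjusted p = 0.241 in limma), 2.04 without Pik3caH1047R. Cyld, a deubiquitinase that restrains the pathway, gave 1.06 ± 0.29, Birc3, a ubiquitin ligase of the receptor complex, 0.98 ± 0.47, and Fadd, the death domain adaptor, −0.92 ± 0.25. Traf1 and these 3 are named because their absolute differences were the largest of the list. All 3 lay on 1 side of the control on every tumour array and none passed. Of all genes measured on every array, 28.9% lay above the control on every tumour array and 26.3% below it. Among the marker lists, 1 gene of any list of another cell type was called against the control, the endothelial gene Emcn (−5.54, adjusted p = 0.00788 in limma), and it was well above background in the control alone. Without Pik3caH1047R it did not pass (−5.57, adjusted p = 0.0714 in limma).

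**Figure D4:**
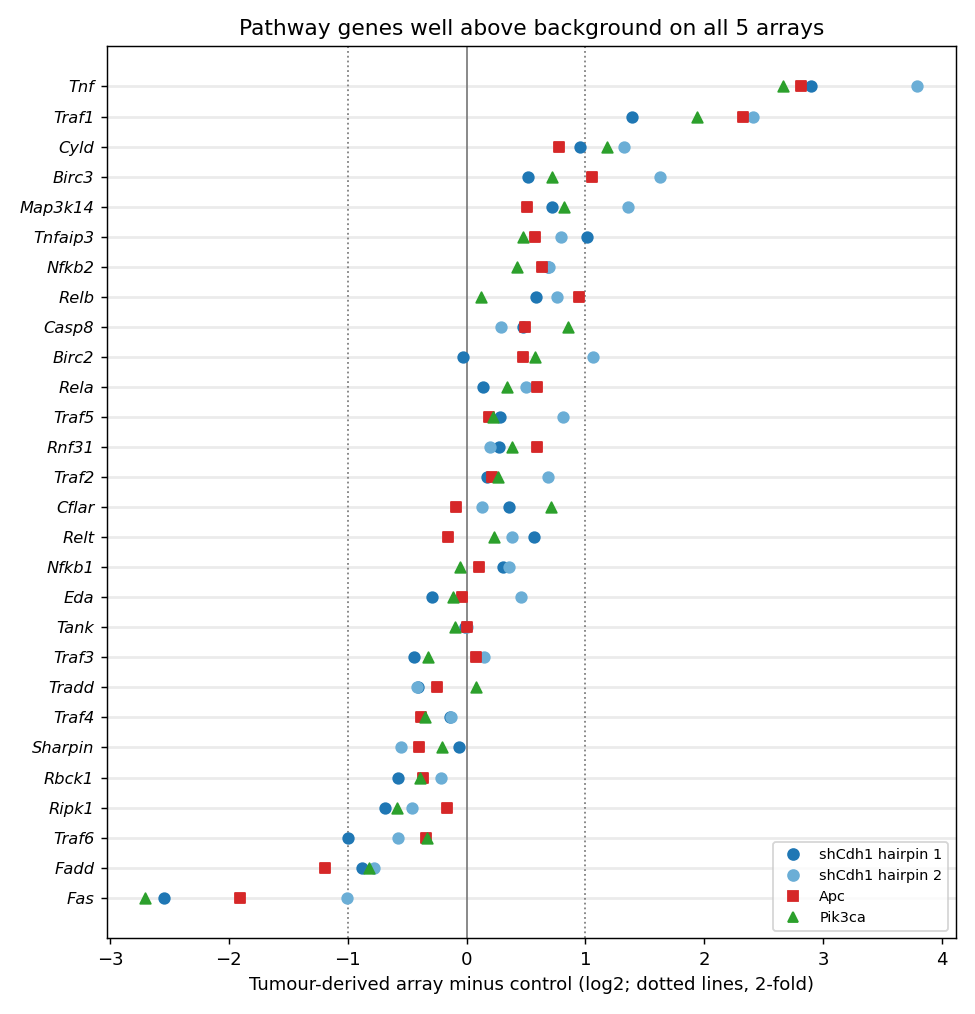
Each tumour culture minus the control (log2), with dotted lines at 2-fold. Shown are superfamily genes with other symbols and adaptors and proximal signalling genes, where well above background on all 5 arrays. Tnf and Traf1 lie above the control on every tumour array and Fas below it. Eda2r, well above background in the control only, is not drawn.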

How the data were processed

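Single-colour Agilent arrays of 5 cultures were analysed. The deposited scanner files hold spot intensity as the authors' scanner software wrote it (Agilent Feature Extraction 11.0.1.1, per the submitters' processing notes). The processed signal is background-corrected by that software, per the file headers. Values the authors deposited as a table, used as an alternative only, are log2: differences between each tumour array and the control matched those of the log2 processed signals with a slope of 1, up to a constant per array, which settles scale and direction. What was subtracted per probe stays unknown; column medians were −0.08 to 0.07.

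From the intensities, control spots and outlier spots were left out, log2 signals were reduced by the array's 75th percentile, spots of a probe were averaged, and the highest-mean probe stood for each gene. Tests used limma 3.58.1 (R 4.3.3) on genes that passed the background mark somewhere, with Benjamini-Hochberg adjustment over all 17583 genes and an adjusted p threshold of 0.05, all tests two-sided. All 4 tumour arrays against the control formed 1 fit with 3 residual degrees of freedom. The lesion comparisons came from a fit over 4 groups with 1 residual degree of freedom, in which a lone array is assumed to vary like the hairpin pair. Statistics are printed for genes that passed, genes 2-fold to 1 side on all tumour arrays, the 2 highest and 2 lowest per comparison among genes measured on all arrays, and genes detected on 1 side only. In the pathway lists, statistics are given for at most 4 genes measured on all arrays, taken by largest absolute difference, and for any gene that passed. Genes below background everywhere are named without statistics. The gene set, pathway lists and marker lists were chosen with earlier results of these data known. Normexp used the median spot signal and median local background, as mean signals were not used here. The tests were tried on simulated data. Promoters come from RefSeq, GRCm38.p6.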

Additional observations from a re-analysis of the deposited data

Results flagged for a closer look

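Among the 4 tumour-derived arrays, 3 of 27 genes had an array far from the rest, against 5.85% of all 17583 genes tested and about 1 in 20 by chance. Ngfr on the Apc array stood at 1.16 and the next highest array at −5.59. Tnfrsf21 with hairpin 1 stood at −0.0178, and the next array at −1.02. The second Tnfrsf21 probe did not show this, with hairpin 1 at −2.31 and the next array at −2.60. Tnfsf4 on the Apc array stood at −7.20 and the next tumour array at −8.03, all of them not well above background.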

How the results depend on the processing

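The number of superfamily genes called between all tumour cultures and the control went from 1 to 0 when only genes measured on all 5 arrays were tested (Tnfsf4 is then not tested) and with slide as a block, and it ranged from 0 to 1 when 1 array was left out. The calls of Tnfsf4 are given with that gene. For Apc580D against the other tumour cultures the count went from 0 to 1 under normexp, the gene being Ngfr. The cause was not tested in either case. The other 5 comparisons kept a count of 0 under each alternative run.

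Of 405 values of named genes under the alternatives, 5 changed sign. Under normexp the Tnfrsf26 difference turned to 0.0653 for all tumour cultures, 0.15 for the hairpins and 0.0462 for Pik3caH1047R against control, all near background. With the median over probes, Tnfrsf13c turned to 0.0013 for Pik3caH1047R against control and Tnfrsf23 to −0.19 for Pik3caH1047R against the other tumour cultures. The median over the members moved by more than its spread in 32 of 62 recomputations. Leaving out the Pik3ca array in the comparisons among tumour cultures was chosen after seeing the data.

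No paired analysis was possible because only the hairpin group has more than 1 array. Slide as a block could not be fitted for the Apc580D and Pik3caH1047R comparisons. Leaving out a hairpin in the lesion comparisons left no residual degrees of freedom and gave values with no test. Signals near background limit Tnfsf4, Ngfr, Tnfrsf9, Tnfsf13b and Tnfrsf26 to bounds.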
